A study of Mus musculus with 32 samples.

Results

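A set of 9 genes of lymphoid priming, the step at which blood progenitors first switch on genes of the lymphocyte lineages, was followed in sorted mouse bone marrow cells: Flt3, Il7r, Notch1, Ikzf1, Tcf3, Satb1, Dntt, Rag1 and Lsp1. The genes were chosen by name, with earlier results of these data known, so counts of members set against all genes describe them and are not independent evidence. All 9 were found among the 45706 genes of the tables and among the 15186 that passed a filter on low counts. The cells were haematopoietic stem and progenitor cells (HSPCs), sorted as Lin- cKit+ Sca1+ and CD45.1+/2+, which marks them as progeny of wild-type C57BL/6J marrow. In every mouse 800000 such marrow cells had been transplanted into lethally irradiated CD45.2 recipients together with 200000 CD45.1 partner cells. In AF9_Experienced mice the partner marrow was homozygous for hMLL-AF9, a human leukaemia fusion gene under doxycycline control, and for rtTA, the doxycycline-dependent activator. In naive mice it carried rtTA without the fusion gene. Both kinds of mice waited 6 to 8 weeks, had 5 weeks of doxycycline and then 4 weeks without it, so the fusion gene had been switched on and off again in the partner cells of experienced mice. The sorted cells themselves never carried it, and the sources used here give neither its promoter nor the ages of the mice nor the cells a recipient still had. LPS (lipopolysaccharide, a bacterial wall product that triggers inflammation) or PBS (saline) was injected 24 h before the cells were taken. The 4 groups, experienced LPS, experienced PBS, naive LPS and naive PBS, held 4 biological replicates each, with 1 table per replicate. Whether mice were pooled is not stated, so the spread behind each p-value is that between these libraries and may be technical.

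Flt3 is the receptor tyrosine kinase that marks multipotent progenitors on the way to lymphoid fates, and Il7r is the interleukin-7 receptor chain needed by early lymphocytes. Ikzf1 (Ikaros), Tcf3 (the E protein E2A) and Satb1 are nuclear proteins required for the lymphoid programme, and Notch1 directs it towards T cells. Dntt (terminal transferase) and Rag1 act in V(D)J recombination, the assembly of antigen receptor genes, and their transcripts appear in progenitors before any lineage is fixed. Lsp1 is an actin-binding protein of leukocytes.

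Promoter sequences are shown for 3 members called lower after LPS in naive mice, Flt3, Dntt and Rag1, and for Ikzf1, which was not, because E proteins and Ikaros bind short motifs that can be searched for in them. Each is the 250 bases before a start site, 5′ to 3′ on the gene's strand, from RefSeq on GRCm38.p6. Capitals mark the E boxes CAGGTG and CAGCTG and the Ikaros core GGGAA on either strand (so also CACCTG and TTCCC). The windows are chr5:147400490-147400739 (minus strand) for Flt3, chr19:41029025-41029274 (plus) for Dntt, chr2:101649533-101649782 (minus) for Rag1 and chr11:11685675-11685924 (plus) for Ikzf1, and GENCODE places no exon in them.
Flt3: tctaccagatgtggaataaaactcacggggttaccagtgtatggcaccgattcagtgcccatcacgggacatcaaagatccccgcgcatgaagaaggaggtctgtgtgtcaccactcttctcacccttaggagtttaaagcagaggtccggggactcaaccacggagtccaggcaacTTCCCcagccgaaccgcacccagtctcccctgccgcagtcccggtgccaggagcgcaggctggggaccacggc
Dntt: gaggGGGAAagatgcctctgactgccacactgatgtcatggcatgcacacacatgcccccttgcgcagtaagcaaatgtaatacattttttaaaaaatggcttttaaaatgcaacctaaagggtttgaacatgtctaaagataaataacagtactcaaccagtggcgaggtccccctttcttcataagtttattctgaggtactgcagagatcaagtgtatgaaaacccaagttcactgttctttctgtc
Rag1: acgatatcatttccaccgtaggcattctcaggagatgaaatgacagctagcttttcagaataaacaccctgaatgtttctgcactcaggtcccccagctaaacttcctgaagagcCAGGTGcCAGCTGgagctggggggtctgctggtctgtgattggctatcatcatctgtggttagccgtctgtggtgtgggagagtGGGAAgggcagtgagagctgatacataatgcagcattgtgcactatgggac
Ikzf1: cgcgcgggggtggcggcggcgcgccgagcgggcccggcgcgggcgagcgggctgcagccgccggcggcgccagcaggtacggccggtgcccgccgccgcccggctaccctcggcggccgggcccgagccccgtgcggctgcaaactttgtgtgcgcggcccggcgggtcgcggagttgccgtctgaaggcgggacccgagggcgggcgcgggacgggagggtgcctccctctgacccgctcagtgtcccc
Rag1 held both E boxes side by side, starting 135 and 128 bases before the start, and a GGGAA that is the end of GTGGGAA, the motif of the Notch partner RBPJ, starting 53 bases before it. Flt3 and Dntt held 1 GGGAA each and neither E box. The Ikzf1 window shown held none of the 4 motifs, while the window of its other start held GGGAA 2 times. RefSeq gave windows for 8 of the 9 members. Over all windows of these members, CAGGTG was found in 2 members, CAGCTG in 2, GGGAA in 6 and GTGGGAA in 2. A single RefSeq window of the same length held them in 17.2%, 13.0%, 56.2% and 5.42% of 32851 cases. The member counts cannot be read against these shares, because a member counts if any of its windows has the motif, and Satb1 has 5 windows and Ikzf1 has 2. A match describes the letters and is not evidence of binding.

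The libraries held 7718857 to 22264672 expected counts. Mitochondrial genes took 7.296% of the counts in experienced LPS replicate 4 and 5.941% in experienced PBS replicate 4, against 1.911% to 4.262% in the other 14 libraries. Kit and Ly6a (Sca1), the genes of the sort gate, were present in every library, Kit at 404 to 778 CPM (counts scaled to a common library size). Ly6a averaged 112 CPM in experienced LPS and 30.5 in experienced PBS, and 124 in naive LPS and 37.7 in naive PBS. Ly6a shares sequence with its family, so its value is uncertain. Summed T cell markers reached at most 3.30 CPM and B cell markers at most 24.2 CPM in any library. In bulk RNA, fewer cells of a type and less RNA per cell cannot be told apart.

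LPS lowered most of the 9 transcripts in both kinds of mice. In experienced mice 6 of the 9 fell and 0 rose by edgeR's quasi-likelihood test (Benjamini-Hochberg adjusted p under 0.05 over all 15186 genes), against 8.26% of all genes called lower and 4.52% called higher. In naive mice 7 of the 9 fell and 0 rose, against 11.9% and 9.81% of all genes. All LPS libraries lay below all PBS libraries for 6 members in experienced mice, against 10.9% of all genes. In naive mice the same held for 7 members, against 16.8% of all genes. The median log2 difference over the members was -1.98 in experienced and -2.04 in naive mice, against medians of -0.025 and 0.017 over all genes. Ikzf1 and Tcf3 were called in neither.

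**Figure D1:**
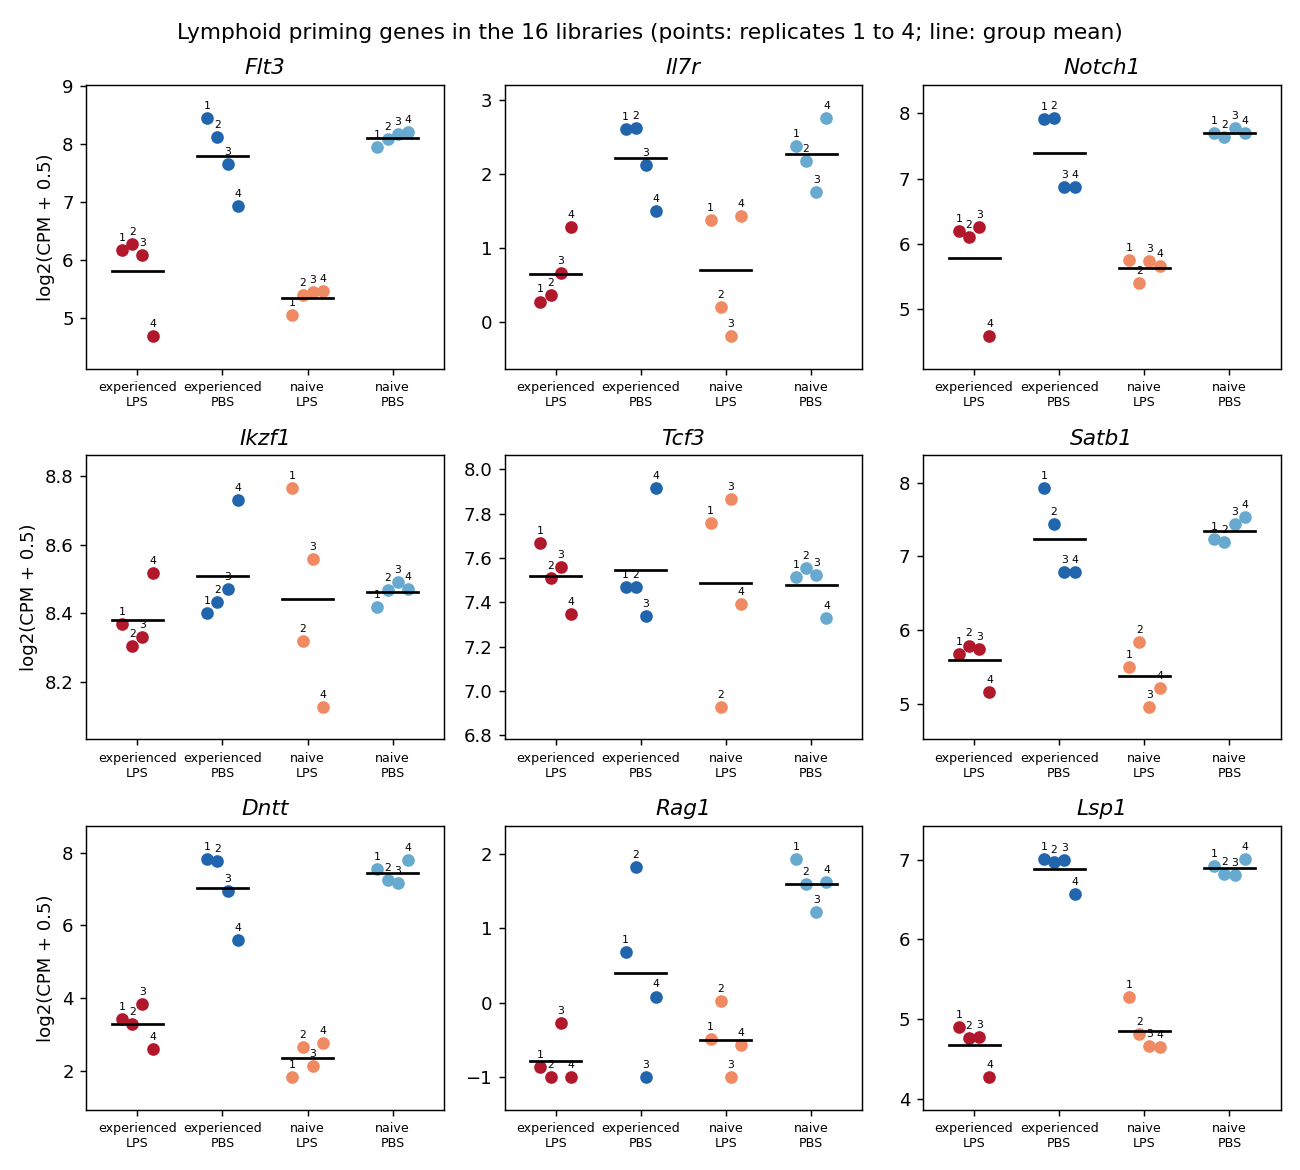
Level of each member in the 16 libraries, as log2(CPM + 0.5), with 1 point per replicate (numbered) and a line at the group mean. All but Ikzf1, Tcf3 and, in experienced mice, Rag1 have every LPS library below every PBS library of the same kind of mice.

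Of the receptors, Flt3 (ENSMUSG00000042817, chromosome 5, 147330741 to 147400489, GRCm38, minus strand) was the most abundant per length. It had 71.7, 77.5, 67.5 and 25.3 CPM in experienced LPS replicates 1 to 4, against 352, 279, 202 and 122 CPM in experienced PBS. Naive mice had 32.6, 41.6, 43.4 and 43.8 CPM after LPS, against 246, 271, 289 and 295 CPM after PBS. All LPS libraries lay below all PBS libraries, and the experienced libraries were the more scattered. The log2 difference was -1.98 (SE 0.31, adjusted p = 0.000705, edgeR) in experienced and -2.77 (SE 0.32, adjusted p = 3.67e-05) in naive mice. An antisense gene, Gm26597, overlaps Flt3, and no source used here gives the strand setting of the counting, so reads of the pair cannot be told apart there. Gm26597 itself averaged 39.0 counts per library.

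Notch1 (ENSMUSG00000026923, chromosome 2, 26457903 to 26516663) had 72.7, 68.5, 75.9 and 23.5 CPM in experienced LPS, against 240, 244, 116 and 116 CPM in experienced PBS. In naive mice the values were 53.3, 41.6, 52.5 and 49.99 CPM after LPS, against 206, 198, 218 and 208 CPM after PBS. Experienced LPS replicate 4 was the lowest of all 16 libraries, and experienced PBS replicates 3 and 4 lay at about the level of each other and below the other PBS libraries. The receptor fell by 1.57 on the log2 scale (SE 0.30, adjusted p = 0.00322, edgeR) in experienced and by 2.07 (SE 0.31, adjusted p = 0.000294) in naive mice.

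Il7r (ENSMUSG00000003882, chromosome 15, 9505788 to 9530176) was rare, with 5 to 109 counts per library. It had 0.711, 0.791, 1.08 and 1.93 CPM in experienced LPS, against 5.60, 5.67, 3.87 and 2.32 CPM in experienced PBS. Naive LPS libraries had 2.10, 0.646, 0.376 and 2.19 CPM, against 4.69, 4.02, 2.88 and 6.29 CPM in naive PBS. The groups did not overlap, but the highest LPS library of each kind of mice came within 1 CPM of the lowest PBS library. Il7r fell by 2.00 on the log2 scale (SE 0.52, adjusted p = 0.0193, edgeR) in experienced and by 1.74 (SE 0.51, adjusted p = 0.0233) in naive mice. Both calls lay near the threshold and were lost when any of several libraries was left out. With each library left out in turn, the log2 difference stayed at -2.30 to -1.81 in experienced and -2.07 to -1.40 in naive mice. In experienced mice the adjusted p was 0.0686, 0.0608 and 0.0625 without LPS replicate 1, 2 or 3 and 0.0583 and 0.0578 without PBS replicate 1 or 2. In naive mice it was 0.0595 and 0.0553 without LPS replicate 2 or 3 and 0.0506 and 0.0741 without PBS replicate 1 or 4.

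Among the nuclear factors only Satb1, an organiser of chromatin loops, was called. Satb1 (ENSMUSG00000023927, chromosome 17, 51736187 to 51833290) had 50.5, 54.8, 53.1 and 35.2 CPM in experienced LPS, against 242, 173, 110 and 109 CPM in experienced PBS. In naive mice it had 44.6, 56.6, 30.7 and 36.5 CPM after LPS, against 150, 146, 172 and 184 CPM after PBS. No LPS library reached the lowest PBS library. The log2 difference was -1.71 (SE 0.25, adjusted p = 0.000406, edgeR) in experienced and -1.96 (SE 0.25, adjusted p = 8.96e-05) in naive mice. Unnamed gene models overlap Satb1, most of them on the same strand and with up to 120 counts per library on average, so the division of reads between them is uncertain.

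Ikzf1 (ENSMUSG00000018654, chromosome 11, 11685003 to 11772926) had 330, 316, 322 and 366 CPM in experienced LPS, against 338, 345, 354 and 424 CPM in experienced PBS. Its naive libraries had 434, 319, 376 and 279 CPM after LPS, against 341, 354, 359 and 354 CPM after PBS. The groups overlapped in both kinds of mice. Its log2 difference was -0.13 (95% interval -0.40 to 0.14, adjusted p = 0.584, edgeR) in experienced mice. In naive mice it was 0.001 (-0.27 to 0.27, adjusted p = 0.997).

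Tcf3 (ENSMUSG00000020167, chromosome 10, 80409514 to 80433647) had 203, 182, 188 and 162 CPM in experienced LPS, against 177, 176, 162 and 241 CPM in experienced PBS. Naive LPS libraries held 216, 121, 233 and 168 CPM and naive PBS libraries 182, 187, 183 and 160 CPM. Here too the groups overlapped. The log2 difference was -0.04 (95% interval -0.39 to 0.31, adjusted p = 0.910, edgeR) in experienced and 0.05 (-0.30 to 0.40, adjusted p = 0.877) in naive mice. For Ikzf1 and Tcf3 a change of 2-fold lies outside every one of these intervals.

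**Figure D2:**
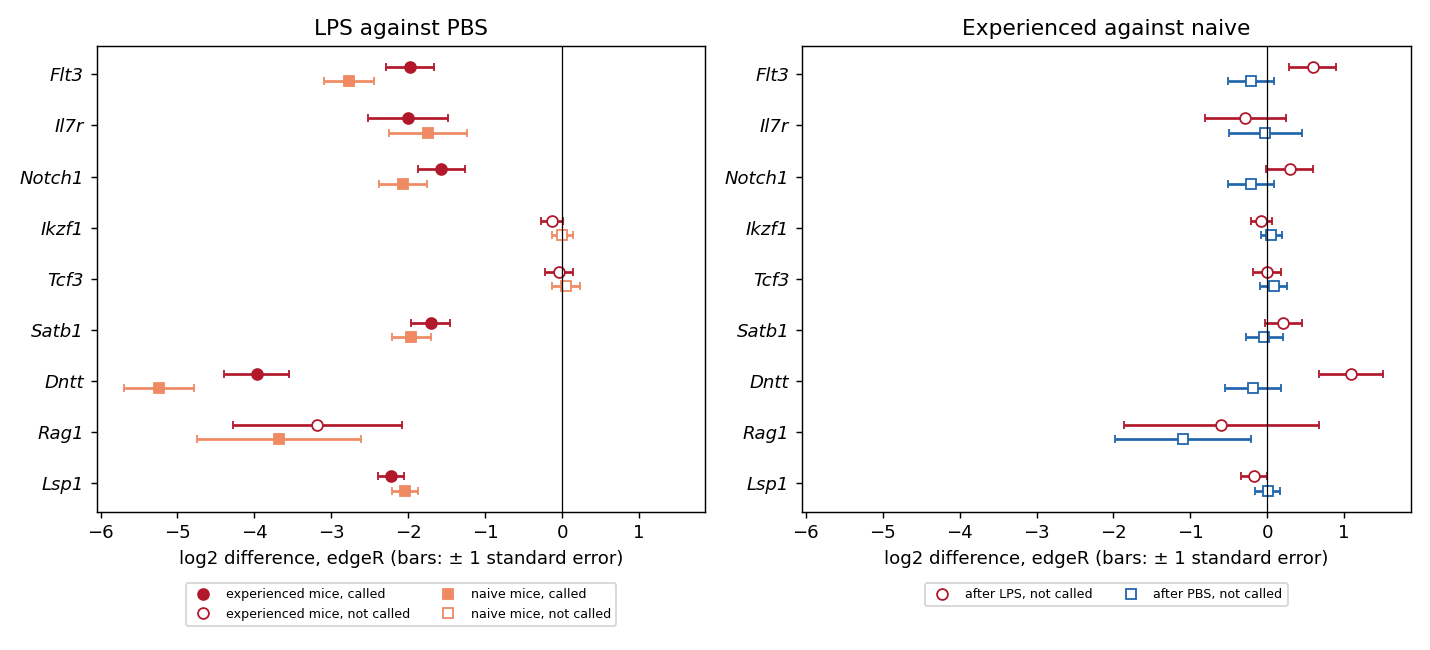
Log2 difference of each member by edgeR, with bars of 1 standard error, for LPS against PBS (left) and experienced against naive mice (right); filled symbols were called. Dntt lies farthest to the left at -3.97 and -5.24, Ikzf1 and Tcf3 lie near 0, and no symbol on the right is filled.

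Of the recombination enzymes, Dntt (ENSMUSG00000025014, chromosome 19, 41029275 to 41059525, plus strand) had the largest difference of the 9 in both kinds of mice. It had 10.3, 9.27, 13.7 and 5.499 CPM in experienced LPS, against 229, 220, 123 and 47.5 CPM in experienced PBS. In naive mice it had 3.04, 5.81, 3.90 and 6.23 CPM after LPS, against 187, 151, 144 and 221 CPM after PBS. Replicates 1, 2 and 3 of experienced LPS lay above every naive LPS library, and experienced PBS replicate 4 lay far below every other PBS library. Dntt was 15.7-fold lower after LPS in experienced mice (log2 -3.97, SE 0.42, adjusted p = 3.23e-05, edgeR) and 37.9-fold lower in naive mice (log2 -5.24, SE 0.45, adjusted p = 4.90e-06).

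Rag1 (ENSMUSG00000061311, chromosome 2, 101638282 to 101649501), the catalytic subunit of the recombinase, was near the limit of detection. Experienced LPS libraries held 1, 0, 7 and 0 counts, against 21, 58, 0 and 6 counts in experienced PBS. Naive LPS libraries held 4, 4, 0 and 2 counts, against 75, 54, 38 and 43 counts in naive PBS. The groups separated in naive but not in experienced mice, where PBS replicate 3 had no count. A count of 0 allows up to 3 counts, which is 0.412 and 0.339 CPM in experienced LPS replicates 4 and 2, 0.200 CPM in experienced PBS replicate 3 and 0.141 CPM in naive LPS replicate 3, for counting error only. The log2 difference was -3.18 (SE 1.10, adjusted p = 0.0669, edgeR) in experienced and -3.68 (SE 1.07, adjusted p = 0.0223) in naive mice. Without experienced PBS replicate 3 the difference in experienced mice was -3.59 (adjusted p = 0.0224). In naive mice the adjusted p was 0.0546 and 0.0573 without LPS replicate 1 or 3 and 0.0531 without PBS replicate 1. DESeq2 called the difference in experienced mice (log2 -3.35, adjusted p = 0.0240). Of 24 other settings, only these 2 called it in experienced mice. With a replicate block it was -2.50 (adjusted p = 0.21, edgeR). With each library left out in turn, it ranged from -5.12 to -2.12. B230118H07Rik, with 213 counts per library on average, overlaps Rag1 on the same strand, so reads in the overlap are uncertain.

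Lsp1 (ENSMUSG00000018819, chromosome 7, 142460809 to 142494867) had the smallest standard error among the members that fell. It had 29.5, 26.7, 26.9 and 18.8 CPM in experienced LPS, against 129, 125, 127 and 94.5 CPM in experienced PBS. Naive libraries had 38.1, 27.6, 24.9 and 24.6 CPM after LPS, against 121, 113, 112 and 128 CPM after PBS. Every LPS library was far below every PBS library. The log2 difference was -2.22 (SE 0.17, adjusted p = 3.09e-06, edgeR) in experienced and -2.04 (SE 0.17, adjusted p = 4.88e-06) in naive mice.

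The order of the members by level per length (TPM, which corrects for transcript length) differed between LPS and PBS groups. Ikzf1 stood highest in all 4 groups, at 113 ± 16.8 TPM in experienced LPS, 135 ± 43.1 in experienced PBS, 129 ± 45.9 in naive LPS and 115 ± 22.4 in naive PBS (SD, n = 4 each). In the PBS groups Dntt, Lsp1, Tcf3 and Flt3 followed at 86.3 to 124 TPM, Dntt at 104 ± 59.8 TPM in experienced and 109 ± 5.47 TPM in naive mice, and the ranges of neighbours in this top group overlapped. After LPS Tcf3 came second, at 93.7 ± 9.41 TPM in experienced and 92.3 ± 31.8 TPM in naive mice, and Lsp1, Flt3, Satb1 and Notch1 followed at 7.80 to 25.7 TPM. Dntt took the seventh place after LPS, at 5.74 ± 1.84 TPM in experienced and 2.67 ± 0.63 TPM in naive mice. Il7r and Rag1 were last in every group, Il7r at 0.425 to 1.82 TPM and Rag1 at 0.0175 to 0.478 TPM, and the ranges of these last members did not overlap with each other.

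Members changed by unequal amounts in the same libraries. The log2 ratio of each member to Flt3, with 0.5 CPM added, was compared between LPS and PBS libraries. All 70 arrangements of 4 against 4 libraries entered an exact permutation test (two-sided), whose smallest possible p is 0.0286. In naive mice 6 of 8 ratios passed after adjustment over the 8 members (exact permutation, adjusted p = 0.0381 each). The Dntt to Flt3 log2 ratio was -3.00 ± 0.32 after LPS and -0.67 ± 0.31 after PBS (SD, n = 4 each, exact permutation p = 0.0286), so Dntt fell further than Flt3. The Ikzf1 and Tcf3 ratios were higher by 2.74 and 2.77 after LPS, and those of Notch1, Satb1 and Lsp1 by 0.70, 0.79 and 0.72. Ikzf1 and Tcf3 themselves stayed near their PBS levels, so their ratios repeat the fall of Flt3. All 8 ratios share Flt3, so the 6 that passed are not separate results. In experienced mice 0 of 8 passed, but 5 of 8 did with 2 CPM added in place of 0.5, so the count there depends on that choice. Whether the ratios changed differently in the 2 kinds of mice was not tested. The Dntt ratio was -2.53 ± 0.42 after LPS and -0.76 ± 0.43 after PBS (SD, n = 4 each, exact permutation p = 0.0286, adjusted p = 0.0762), and Ikzf1 and Tcf3 had the same pair of p-values.

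**Figure D3:**
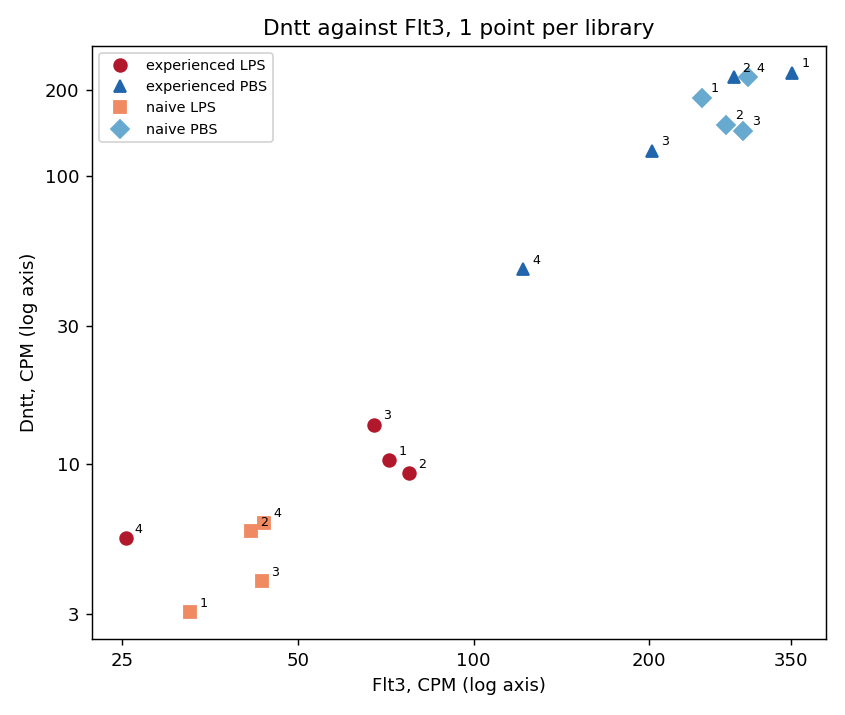
Dntt against Flt3 in CPM on log axes, with 1 point per library, numbered by replicate. The 8 LPS libraries lie at the lower left and the 8 PBS libraries at the upper right, with experienced PBS replicates 3 and 4 nearest to the LPS libraries.

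No member was called between experienced and naive mice. After PBS 0 of 9 were called between experienced and naive mice, as were 0% of all 15186 genes, and 451 genes had an unadjusted p under 0.05 in edgeR, none of them a member, while DESeq2 called 2 genes. After LPS the counts were again 0 of 9 and 0%, with 491 genes at an unadjusted p under 0.05 and 2 called by DESeq2. For the interaction (the LPS difference in experienced mice less the one in naive mice) they were 0 of 9 and 0%, with 695 genes and 1. Dntt was the only member with an unadjusted p under 0.05 in the contrast after LPS and in the interaction. It averaged 9.68 ± 3.36 CPM in experienced LPS and 4.75 ± 1.52 CPM in naive LPS (SD, n = 4 each), a log2 difference of 1.09 (95% interval 0.28 to 1.90) with an edgeR quasi-likelihood p of 0.0171, which is 1.0 after adjustment over all genes. Its interaction was 1.27 (0.19 to 2.35), with an edgeR quasi-likelihood p of 0.0337, adjusted p = 0.884. Flt3 averaged 60.5 ± 23.8 CPM in experienced LPS and 40.4 ± 5.23 CPM in naive LPS, a log2 difference of 0.59 (-0.01 to 1.19, adjusted p = 1.0, edgeR).

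Experienced LPS replicate 4 had lower values than the rest of its group for Flt3, Notch1, Tcf3, Satb1, Dntt and Lsp1, and higher values for Il7r and Ikzf1. Without that replicate, the log2 differences between experienced and naive mice after LPS were 0.85 for Flt3 (adjusted p = 0.276, edgeR), 1.28 for Dntt (adjusted p = 0.296) and 0.56 for Notch1 (adjusted p = 0.338). The value of Notch1 with all libraries was 0.29. After PBS the 95% intervals of the difference between experienced and naive mice were -0.79 to 0.38 for Flt3, -0.90 to 0.53 for Dntt, -0.51 to 0.43 for Satb1 and -0.31 to 0.33 for Lsp1. That of Rag1, -2.83 to 0.63, was the widest.

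The experienced PBS group was itself uneven. Replicates 3 and 4 were lowest of the 8 PBS libraries for Flt3, Notch1, Satb1 and Dntt, and replicate 4 was also lowest for Il7r and Lsp1. The summed level of 7 erythroid markers was 350 and 1200 CPM in these replicates, against 38.8 and 39.5 CPM in replicates 1 and 2 and 18.7 to 93.8 CPM in naive PBS, where Hba-a1 was at 0. Experienced LPS replicate 4 had 834 CPM, against 172 to 321 CPM in the other 3 libraries of its group. The part of these markers, and of the mitochondrial share, in the levels of the members was not tested.

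Within one treatment, members were compared with Flt3 across libraries (Pearson r of log2 values, exact permutation over pairings, adjusted over 16 relations). In the 8 PBS libraries Satb1 (r = 0.869, rho = 0.952, adjusted p = 0.0135 and 0.0183, exact permutation), Dntt (r = 0.936, rho = 0.833, adjusted p = 0.0208 and 0.112) and Notch1 (r = 0.873, rho = 0.786, adjusted p = 0.0208 and 0.112) varied with Flt3. Without experienced PBS replicates 3 and 4, the farthest from the median of Flt3, r was 0.949 for Satb1, 0.418 for Dntt and 0.573 for Notch1, so the relations of Dntt and Notch1 rest on those libraries. Ikzf1 went the other way without passing (r = -0.884, rho = -0.357, adjusted p = 0.0756 and 0.566, exact permutation), as did Tcf3 (r = -0.720). Without those 2 libraries r was -0.216 for Ikzf1. With each group's mean taken off, Ikzf1 passed by r (r = -0.880, adjusted p = 0.0365, exact permutation) but not by rho. In the 8 LPS libraries only Notch1 passed by r (r = 0.878, rho = 0.738, adjusted p = 0.0208 and 0.147, exact permutation), with r = 0.813 without experienced LPS replicates 2 and 4. For Dntt in the LPS libraries r was 0.776 (rho = 0.786, adjusted p = 0.0756 and 0.112, exact permutation).

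The genes most like Flt3 and Dntt were ranked over 12434 genes by Pearson r of log2 CPM across the 16 libraries after each group's mean was taken off, as a description. For Flt3 they were Ephb2 (r = 0.968), Tbc1d16 (0.968), Itpk1 (0.957), Il4ra (0.952) and Rasa4 (0.949). By this measure the other members had r with Flt3 of 0.888 (Notch1), 0.817 (Dntt), 0.692 (Satb1), 0.563 (Lsp1), 0.305 (Rag1), -0.05 (Il7r), -0.13 (Tcf3) and -0.592 (Ikzf1). After LPS, 4 of the 5 genes most like Flt3 were called lower in naive mice and 1, Rasa4, in experienced mice. The exception in naive mice, the interleukin-4 receptor chain Il4ra, averaged 143 CPM in experienced LPS, 84.6 in experienced PBS, 119 in naive LPS and 97.0 in naive PBS, without a call, while Rasa4 fell in both kinds of mice (log2 -1.69, adjusted p = 0.00307 in experienced and -2.02, adjusted p = 0.000631 in naive mice, edgeR). For Dntt the closest were Hspa12b (r = 0.942), Tes (0.904), Rcbtb1 (0.899), Rhoq (0.897) and Col16a1 (0.896). All 5 were called lower after LPS in naive mice, and Hspa12b, Rcbtb1 and Rhoq also in experienced mice. Beside the counts for Flt3 and Dntt, 11.9% of all genes were called lower in naive and 8.26% in experienced mice. The 16 libraries share the deviations of a few scattered libraries, which enter every one of these values.

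Other lymphoid genes were counted in lists around each role. Of 21 tested markers of lymphoid-primed progenitors (24 listed), 11 fell and 0 rose in experienced mice and 14 fell and 0 rose in naive mice, and all 11 were among the 14. The list was chosen with earlier results of these libraries known, so its direction is not independent evidence. The shares called lower were 52.4% in experienced and 66.7% in naive mice, against 8.26% and 11.9% of all genes. Of all genes, 4.52% and 9.81% were called higher. The median log2 difference of these markers was -1.13 in experienced and -1.90 in naive mice, against -0.025 and 0.017 over all genes. Lax1, an adaptor of lymphocyte signalling, averaged 4.52 ± 2.23 CPM in experienced LPS and 24.2 ± 7.36 CPM in experienced PBS (log2 -2.39, SE 0.32). In naive mice it averaged 4.97 ± 0.47 CPM after LPS and 26.1 ± 4.18 CPM after PBS (log2 -2.39, SE 0.32). Ltb, the lymphotoxin beta chain, differed by -2.55 and -2.63 and Evl, an actin regulator, by -1.60 and -1.95 in experienced and naive mice. Ighm, the immunoglobulin mu chain, averaged 25.5 ± 11.1 CPM in experienced LPS and 377 ± 255 CPM in experienced PBS (log2 -3.89, SE 0.54). In naive mice Ighm differed by -3.52 (SE 0.53). Dok2, an adaptor that restrains kinase signalling, differed by -1.13 in experienced and -1.90 in naive mice. Ighm and Dok2 were called in both.

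Of 25 tested transcription factors of lymphoid specification (26 listed), 5 fell and 1 rose in experienced mice and 6 fell and 2 rose in naive mice. The shares called lower were 20% in experienced and 24.0% in naive mice, against 8.26% and 11.9% of all genes. Those called higher, 4.0% and 8.0%, were near the 4.52% and 9.81% of all genes. The 5 were Bach2, Irf8, Sox4, Irf4 and Gata3 (the last named after its values were seen, to complete the count), and they were among the 6. Bach2, a repressor active in lymphoid progenitors, averaged 10.1 ± 1.44 CPM in experienced LPS and 33.4 ± 10.9 CPM in experienced PBS (log2 -1.73, SE 0.24). It averaged 9.06 ± 2.57 CPM in naive LPS and 35.2 ± 4.32 CPM in naive PBS (log2 -1.97, SE 0.24). Irf8, which directs dendritic cell and monocyte fates as well as B cell genes, had log2 differences of -1.65 (SE 0.35) and -2.77 (SE 0.37) in experienced and naive mice. Irf4 differed by -1.71 and -2.66 and Sox4 by -1.04 and -0.81 in experienced and naive mice. Zbtb16 (PLZF), a factor of innate-like lymphocytes, rose in both, by 0.83 (SE 0.18) and 1.02 (SE 0.18) on the log2 scale.

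Of 14 V(D)J recombination genes besides Dntt and Rag1, 1 fell and 0 rose in experienced mice, and 2 fell and 1 rose in naive mice. Rag2, the partner of Rag1, was called in both, at 0.151 ± 0.242 CPM in experienced LPS and 3.91 ± 1.77 CPM in experienced PBS, and at 0.105 ± 0.048 CPM in naive LPS and 4.36 ± 2.37 CPM in naive PBS. In naive mice Xrcc4, an end-joining factor, fell by 0.70 (SE 0.22) and Polm, a polymerase related to Dntt, rose by 1.55 (SE 0.45) on the log2 scale. The shares called lower, 7.14% in experienced and 14.3% in naive mice, are near the 8.26% and 11.9% of all genes.

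Of 7 tested E proteins, Id inhibitors and partners of Tcf3 (8 listed), 1 fell and 1 rose in experienced mice and 2 fell and 1 rose in naive mice. With so few genes, these counts are close to what the shares over all genes, 8.26% lower and 4.52% higher in experienced and 11.9% and 9.81% in naive mice, would give. Id1, an inhibitor that binds E proteins, averaged 8.14 ± 2.51 CPM in experienced LPS and 1.39 ± 0.35 CPM in experienced PBS (log2 2.56, SE 0.54). It averaged 5.11 ± 0.68 CPM in naive LPS and 0.672 ± 0.452 CPM in naive PBS (log2 2.88, SE 0.55). Tcf4, an E protein, had log2 differences of -0.63 (SE 0.15) and -0.54 (SE 0.15) in experienced and naive mice, and Lyl1 fell by 0.98 (SE 0.26) in naive mice.

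Of 22 tested Notch pathway genes (28 listed), 2 fell and 0 rose in experienced mice and 5 fell and 2 rose in naive mice. The 9.09% called lower in experienced mice and the 9.09% called higher in naive mice are near the 8.26% and 9.81% of all genes. The 22.7% called lower in naive mice stand against 11.9% of all genes. Maml2 and Maml3, co-activators of Notch, fell in both, by 1.29 (SE 0.26) and 0.90 (SE 0.17) in experienced and by 1.36 (SE 0.26) and 0.82 (SE 0.17) in naive mice on the log2 scale. Psen2, a subunit of the gamma-secretase that cleaves Notch, rose by 0.90 (SE 0.17) and Lfng, which adds sugars to Notch, fell by 0.65 (SE 0.19) in naive mice.

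Of 19 tested genes of Flt3 and Il7r signalling (20 listed), 1 fell and 1 rose in experienced mice and 5 fell and 1 rose in naive mice. In experienced mice this is 5.26% in each direction, against 8.26% of all genes lower and 4.52% higher. The naive shares are 26.3% lower and 5.26% higher, against 11.9% and 9.81%. Socs2, a feedback inhibitor of cytokine receptors, fell in both, by 1.28 (SE 0.35) in experienced and 1.34 (SE 0.36) in naive mice. Sh2b3 (Lnk), a brake on cytokine signalling, fell by 0.86 (SE 0.22), Jak3 by 0.90 (SE 0.28) and the survival factor Bcl2 by 0.59 (SE 0.19) in naive mice. Ptpn11, a phosphatase that relays receptor signals, rose by 0.44 (SE 0.12) in experienced mice. Of 19 chromatin partners of Ikaros and Satb1, 0 fell and 0 rose in experienced mice, where Chd4 differed by 0.11 (adjusted p = 0.770) and Smarca4 by 0.04 (adjusted p = 0.891, edgeR). In naive mice Mbd2 alone was called, higher by 0.97 (SE 0.28). Between experienced and naive mice 0 genes of the 7 lists were called after LPS, after PBS or in the interaction.

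**Figure D4:**
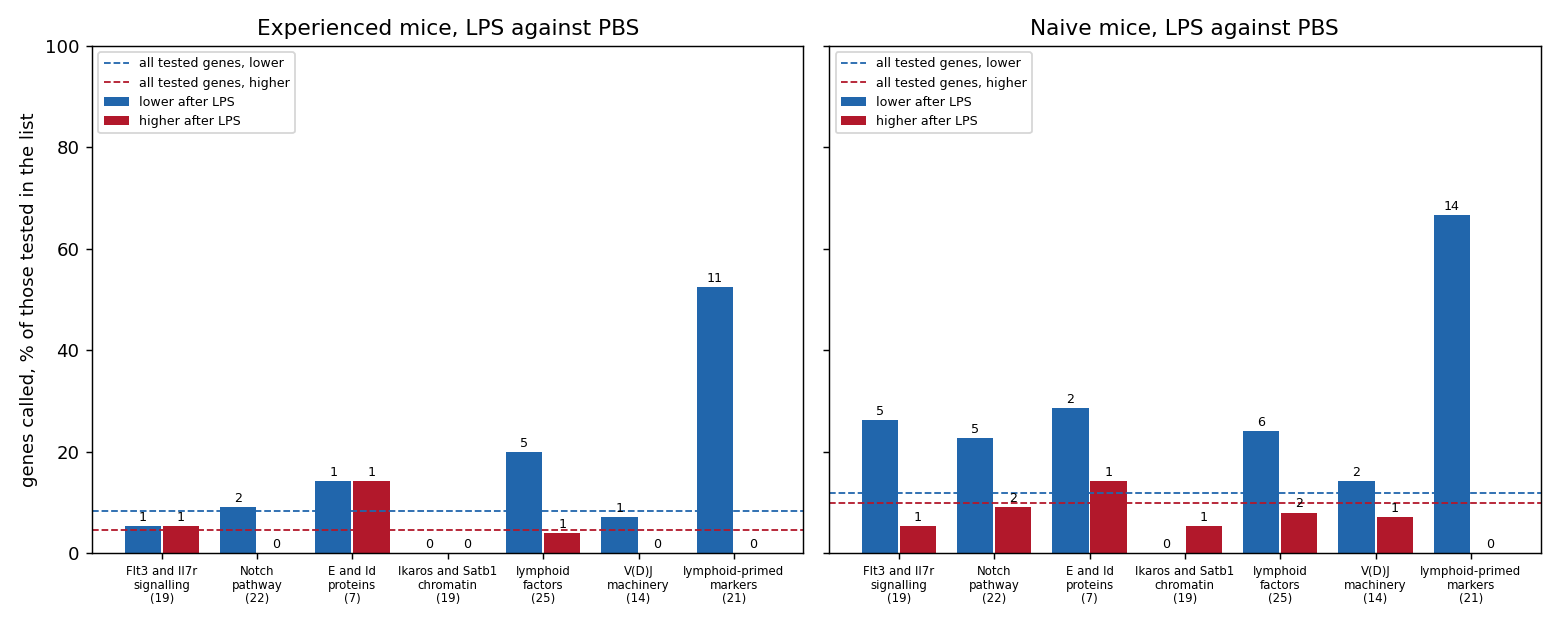
Share of the tested genes of each list (number tested in brackets) called lower (blue) or higher (red) after LPS, in percent, with the number called above each bar, for experienced (left) and naive mice (right); dashed lines give the share over all tested genes. The lymphoid-primed markers reach 52.4% and 66.7% called lower, against 8.26% and 11.9% of all genes.

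Levels of markers of other cells that the gate could hold differed between LPS and PBS libraries too. The 7 erythroid markers summed to 172 to 834 CPM in experienced LPS and 38.8 to 1200 CPM in experienced PBS, which overlapped. In naive mice they summed to 297 to 879 CPM after LPS and 18.7 to 93.8 CPM after PBS, without overlap, in the libraries where the members were low. Car1 made up most of that sum, at 491 ± 226 CPM in naive LPS and 50.4 ± 26.9 CPM in naive PBS (SD, n = 4 each).

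The 6 basophil or mast cell markers summed to 485 to 758 CPM in experienced LPS and 248 to 397 CPM in experienced PBS, and to 598 to 1010 CPM in naive LPS and 265 to 305 CPM in naive PBS. Most of that sum was Gata2, at 370 CPM in experienced LPS, 242 in experienced PBS, 436 in naive LPS and 245 in naive PBS on average. Each of the 6 had a higher mean after LPS in both kinds of mice. The 6 megakaryocyte markers summed to 333 to 668 CPM in experienced LPS and 144 to 228 CPM in experienced PBS, and to 374 to 543 CPM in naive LPS and 183 to 288 CPM in naive PBS. That sum is mainly Itga2b, the integrin alpha IIb chain, which averaged 374 CPM in naive LPS and 162 CPM in naive PBS. In naive mice 4 of the 6 markers had lower means after LPS. Pf4 averaged 13.9 CPM in naive LPS and 20.2 CPM in naive PBS, and Gp9 4.39 and 7.30 CPM, with Ppbp and Vwf in the same direction. In experienced mice all 6 had higher means after LPS.

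The 7 B cell markers summed to 10.0 to 18.5 CPM in experienced LPS and 15.3 to 24.0 CPM in experienced PBS, and to 12.7 to 17.0 CPM in naive LPS and 22.5 to 24.2 CPM in naive PBS. The 5 plasmacytoid dendritic cell markers were low throughout, at 0.965 to 2.26 CPM in experienced LPS and 0.930 to 4.89 CPM in experienced PBS, and 0.262 to 1.27 CPM in naive LPS and 3.55 to 5.51 CPM in naive PBS. Of these, Klk1 and Cd300c were at 0 in both LPS groups, but Klk1 averaged only 0.0261 CPM in experienced PBS and 0.012 CPM in naive PBS. The 7 neutrophil markers summed to 1.81 to 9.15 CPM in experienced LPS and 4.63 to 34.0 CPM in experienced PBS, and to 1.55 to 2.59 CPM in naive LPS and 4.85 to 7.72 CPM in naive PBS. Summed T cell, NK cell and monocyte or macrophage markers overlapped between LPS and PBS in both kinds of mice. The part of these cells in the levels of the members was not tested.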

How the data were processed

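RNA of sorted HSPCs was measured in 16 libraries, 4 per group. Each biological replicate has 2 technical replicates in the labels and 1 table; no source used here says how they were joined. The labels name a droplet single-cell kit, but the tables are bulk gene tables. Per the submitters' processing notes, the authors used Trim Galore 0.6.7, STAR 2.7.10a and RSEM 1.3.1 with GRCm38, so the deposited expected counts are RSEM's estimates, in which reads shared by genes are split. The deposited TPM values are RSEM's length-corrected levels, per the file headers. No source used here gives the annotation release or strand setting.

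Of 45706 gene IDs, 45143 matched a symbol. The 9 members, the lists and the tests were chosen with earlier results of these data known. Expected counts were rounded, filtered with filterByExpr (15186 genes, 99.928% of counts) and fitted in edgeR 4.0.16 (R 4.3.3) with TMM factors, 1 mean per group and quasi-likelihood tests, adjusted by Benjamini-Hochberg over all genes tested and called at 0.05. SE is the log2 difference divided by the square root of F, and 95% intervals use the normal quantile. The code was tested on simulated data. Ratios and correlations used 0.5 CPM added (scipy 1.17.1). Alternatives were limma 3.58.1, DESeq2 1.42.0, other scalings and filters and left-out libraries. Named genes are the members, up to 4 called genes per list and comparison with the lowest adjusted p (2 of highest level where none was called) and the 5 genes most like Flt3 and Dntt. Libraries held 7718857 to 22264672 counts, and the median SE over genes was 0.248 in experienced and 0.247 in naive mice. Floors for counts of 0 cover counting error only.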

Additional observations from a re-analysis of the deposited data

Results flagged for a closer look

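Of 36 groups of 4 libraries examined, 1 per member and group, 3 held a library whose gap to its nearest neighbour took a larger share of the group's range than Dixon's 95% limit allows. Chance flags about 1 in 20 groups. Notch1 had 23.5 CPM in experienced LPS replicate 4, against 68.5 to 75.9 CPM in the other 3 libraries (gap share 0.859). Rag1 had 0.33 CPM, from 7 counts, in experienced LPS replicate 3, where the other 3 libraries held 0 or 1 count (gap share 0.846). Lsp1 had 94.5 CPM in experienced PBS replicate 4, against 125 to 129 CPM in the other 3 (gap share 0.901). Both replicates numbered 4 are the libraries with the highest mitochondrial shares.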

How the results depend on the processing

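Over 25 other settings, 1033 of 1114 member values kept their direction and side of the threshold, 12 lost the call, 2 gained it and 67, none of them called, changed sign. The cause was not tested. Changes of sign in naive mice after LPS were, for Ikzf1, -0.0799 (upper-quartile factors), -0.00211 (RLE), -0.00154 (DESeq2) and -0.00261 (replicate block), and for Tcf3, -0.03 (upper-quartile), -0.0907 (limma, TPM + 1) and -0.092 (limma, TPM + 0.1). Between experienced and naive mice after PBS, Lsp1 gave -0.0238 (upper-quartile), -0.00784 (RLE), -0.00745 (DESeq2), -0.013 (no filter) and -0.00974 (replicate block). Il7r gave 0.021 and 0.00257 (limma, TPM + 1 and + 0.1) and 0.085 (replicate block). After LPS, Tcf3 gave 0.00191 (RLE), 0.00155 (DESeq2), 0.0028 (no filter), 0.0824 and 0.0839 (limma, TPM + 1 and + 0.1) and 0.0103 (replicate block). Without experienced LPS replicate 4 and experienced PBS replicate 4, a setting chosen after seeing the data, Tcf3 gave 0.179 for LPS in experienced mice, 0.0506 after LPS and 0.11 in the interaction. After PBS it gave 0.00788 for Flt3, 0.173 for Il7r, -0.0311 for Ikzf1, -0.0598 for Tcf3, 0.0977 for Satb1 and 0.113 for Dntt. In that setting the members called were still 6 in experienced and 7 in naive mice, and lymphoid-primed markers called lower were 11 and 16. Flt3 and Il7r signalling genes called lower were 3 in experienced mice, against 1 with all libraries.

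Leaving out each library in turn gave, for LPS in naive mice, -0.116 to 0.102 (Ikzf1) and -0.0826 to 0.227 (Tcf3), and in experienced mice -0.107 to 0.12 (Tcf3). After PBS the ranges were -0.187 to 0.17 (Il7r), -0.0405 to 0.0879 (Ikzf1), -0.069 to 0.15 (Tcf3), -0.318 to 0.101 (Satb1), -0.43 to 0.103 (Dntt) and -0.0326 to 0.0878 (Lsp1). After LPS they were -0.62 to 0.0523 (Il7r), -0.173 to 0.0362 (Ikzf1), -0.159 to 0.125 (Tcf3) and -2.56 to 0.055 (Rag1). In the interaction they were -0.595 to 0.0905 (Il7r), -0.237 to 0.0566 (Tcf3) and -1.45 to 1.55 (Rag1). With 2 CPM added, 5 member-to-Flt3 ratios passed in experienced mice, against 0. On TPM + 0.5, 0 correlations with Flt3 passed in LPS libraries, against 1.

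Genes called in naive mice were 3293, against 2089 to 4398 with a library left out and 1880 and 1772 by limma. In experienced mice they were 1940, against 1065 to 3157, 1132 and 1107 by limma, 1179 with the 2 groups alone and 3360 without both replicates 4. Replicate numbers were shared between groups, but only 6 of 24 same-numbered pairs correlated above 0.1 (range -0.466 to 0.688) and 4 of 16 libraries were closest to their own number. Between experienced LPS and experienced PBS, replicates 1, 2 and 4 correlated at 0.361, 0.435 and 0.51, and replicate 3 at -0.203. The labels state no pairing. With the replicate block, 6 members in experienced and 7 in naive mice were called, of 1592 and 2920 genes. Depth limits Il7r and Rag1, whose counts are low.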
